A study of Homo sapiens with 6 samples.

Results

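The genes described here are 36 genes of the endoplasmic reticulum (ER) that fold secretory proteins, sense misfolded ones and send them for degradation, out of 17789 gene symbols listed in the series. They were chosen by name, with earlier results of these data known, and each was listed at 1 locus in all 6 libraries. By role, 22 are folding factors (9 around the chaperones BiP and GRP94, 2 lectin chaperones, 9 enzymes of disulfide bonds and 2 prolyl isomerases), 3 are sensors of the unfolded protein response with its transcription factor, 9 act in ER-associated degradation and 2 belong to the Sec61 channel. The libraries came from A549, an established line of human lung adenocarcinoma cells, in a FOXD3 knockdown group of 3 and a control group of 3 that is labelled wild type. FOXD3, a forkhead transcription factor, was knocked down by transfecting pooled small interfering RNAs with Lipofectamine, a lipid reagent. The knockdown was checked 72 h after transfection, per the labels' protocols. What the control wells received is not given in the labels, so the loss of FOXD3 and the transfection itself cannot be told apart. The labels do not tell whether the 3 libraries of a group are separate cultures; the p-values therefore rest on library-to-library spread that may be technical.

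The ER folds proteins in a calcium-rich lumen with the help of chaperones: BiP holds exposed hydrophobic stretches, calreticulin and calnexin hold glycoproteins, and protein disulfide isomerases shape disulfide bonds. When misfolded proteins build up, the sensors IRE1, ATF6 and PERK start the unfolded protein response, which raises chaperone genes and slows protein synthesis. Proteins that fail to fold are passed back to the cytosol through ubiquitin ligase complexes and destroyed by the proteasome, a route called ER-associated degradation. Alveolar type II cells, the lung epithelium that A549 is used to model, secrete surfactant proteins through this machinery.

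Values are FPKM as the authors deposited them, which divide fragments by transcript length and by mapped depth, so that levels can be compared between genes. The deposited values are not counts, and depth was not measured. A reading of low values in genes without introns gave medians of 6610000 to 7600000 fragments per library. Only readings between 5000000 and 12000000 were kept, from 10 to 15 of 150 to 161 such genes per library. That window largely sets the medians, so they do not establish the depth. FOXD3 itself was not listed in knockdown libraries 1 and 3 and stood at 0.0749 FPKM in library 2, against 0.152, 0.291 and 0.134 FPKM in the control libraries (exact two-sided permutation p = 0.1, the smallest that 3 against 3 allows). All of these values, the controls included, are near the floor and under the 0.5 FPKM filter used for testing. The libraries alone therefore do not show how far FOXD3 was lowered. All 6 epithelial markers were at 1 FPKM or more; 3 were called higher and 2 lower, with KRT8 at 3203 FPKM in knockdown and 2059 FPKM in control libraries, and KRT7 at 1545 FPKM in knockdown and 1709 FPKM in control libraries. The alveolar surfactant gene SFTPB was listed in none and the 9 alveolar markers summed to 5.38 to 6.66 FPKM in knockdown and 10.3 to 11.1 FPKM in control libraries. Summed markers reached 4.34 to 4.47 FPKM in knockdown and 7.79 to 8.74 FPKM in control libraries for leukocytes (8 genes), 1.90 to 2.18 and 2.61 to 3.42 FPKM for endothelium (5 genes), and 2.96 to 3.56 and 3.55 to 4.48 FPKM for fibroblasts (6 genes). In the plasma cell list (6 genes) SDC1, which epithelia also express, made up most of the sum of 46.7 to 48.8 FPKM in knockdown and 32.2 to 37.6 FPKM in control libraries; PRDM1 averaged 0.584 FPKM in knockdown and 2.38 FPKM in control libraries, and MZB1 and IGJ stood at or near 0. The part of these differences in the results below was not tested.

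The folding genes were mostly higher in the knockdown libraries, the sensors were all lower, and the degradation genes were mixed, near the split of all tested symbols. Each change is the knockdown mean less the control mean of log2(FPKM + 1), a measure that shrinks differences in weakly expressed genes, from limma fitted over all 13340 symbols with a mean of at least 0.5 FPKM. All 36 genes passed that filter. Of them, 20 were higher and 9 lower at a Benjamini-Hochberg adjusted p under 0.05, beside 25.6% of all tested symbols called higher and 37.9% called lower (63.5% in either direction). These shares include weakly expressed symbols. With a filter of 5 FPKM, which all of the 36 but ERO1LB, ERN1 and DERL3 pass, 2967 symbols were called higher and 3295 lower. The knockdown and control values did not overlap in 32 of the 36 genes, with 22 higher and 10 lower, beside 28.3% of tested symbols apart and higher and 40.8% apart and lower (69.1% in all). A log2 rise of at least 0.5 past the threshold was seen in 12 of the 36, against 10.7% of all symbols, and a fall of that size in 6, against 20.8%. The median log2 change was 0.18 over the 36 genes and -0.09 over all symbols tested. Because the tested symbols as a whole sat at -0.09 as deposited and at 0.03 after quantile normalization, changes of about that size depend on the scaling, and over all symbols the split of 3417 higher and 5050 lower became 4140 and 4304 after median scaling and 4304 and 3909 after quantile normalization. The libraries are of bulk RNA, so a change per cell and a change in the mix of cells cannot be told apart.

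**Figure D1:**
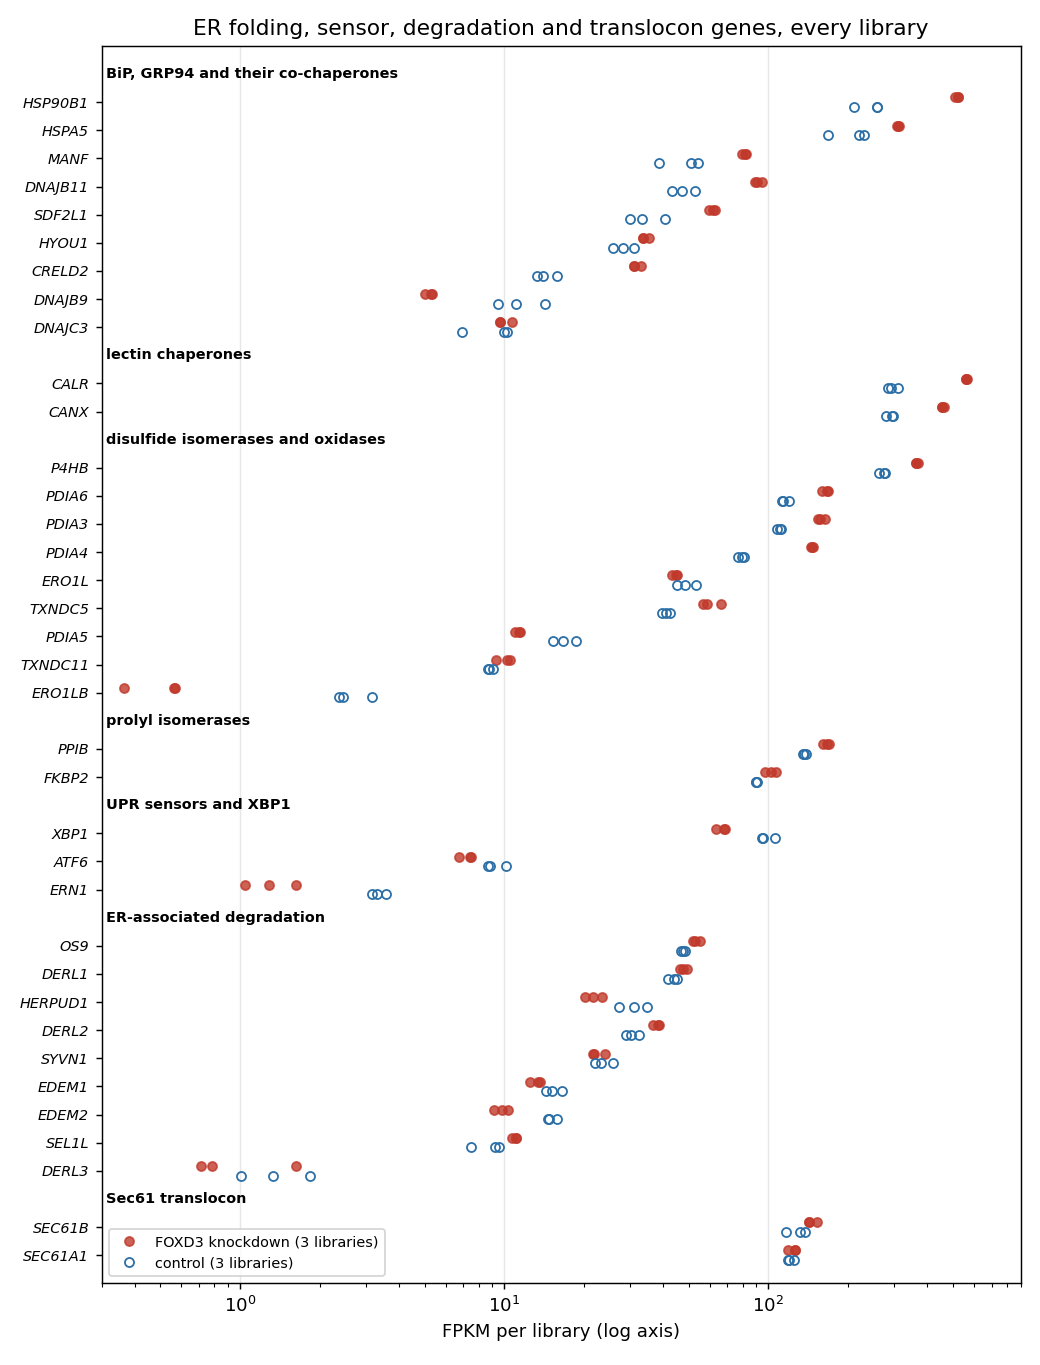
FPKM of each of the 36 genes in every library on a log axis, ordered by role and by control level; filled points are the 3 knockdown libraries and open points the 3 control libraries. CALR, HSP90B1, CANX and P4HB lie furthest right, and their knockdown points sit apart from and to the right of their control points, while ERO1LB, ERN1 and XBP1 have knockdown points to the left.

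The ER forms of HSP90 and HSP70, which are among the most abundant folding genes, were both higher in knockdown libraries. HSP90B1, which encodes GRP94, the ER HSP90 (chromosome 12, 104324189 to 104341703, hg19), had 509.6, 520.3 and 523 FPKM in the knockdown libraries, against 211, 257 and 257 FPKM in the control libraries. All 3 knockdown values lay far above the control values, a 2.14-fold difference of means, and the log2 change was 1.10 (SE 0.074; limma, adjusted p = 8.26e-06). HSPA5, which encodes BiP, the ER HSP70 that also holds the sensors inactive (chromosome 9, 127997127 to 128003666, hg19), had 310.2, 313 and 306 FPKM in the knockdown libraries, against 168, 220.3 and 231 FPKM in the control libraries. The control libraries spread widely here, with control library 1 lowest, yet all 3 knockdown libraries lay above them; the log2 change was 0.60 (SE 0.11; limma, adjusted p = 0.00141). Without control library 1 the change of HSPA5 was 0.46 (limma, adjusted p = 4.63e-05).

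Co-chaperones that steer BiP did not move together. DNAJB11, an abundant soluble J-domain protein that brings substrates to BiP, had 88.6, 94.6 and 90.3 FPKM in the knockdown libraries, against 43.1, 47.3 and 53.0 FPKM in the control libraries, a log2 change of 0.92 (SE 0.073; limma, adjusted p = 1.83e-05). DNAJB9, a J-domain protein that binds BiP and restrains IRE1, moved the other way, with 5.00, 5.33 and 5.28 FPKM in the knockdown libraries, against 9.47, 11.1 and 14.2 FPKM in the control libraries. It was 2.23-fold lower, with a log2 change of -1.005 (SE 0.13; limma, adjusted p = 0.000222), and the groups did not overlap. DNAJC3, a J-domain protein known as an inhibitor of PERK, had 9.63, 9.63 and 10.7 FPKM in the knockdown libraries, against 6.92, 9.97 and 10.3 FPKM in the control libraries. Those ranges overlapped, the log2 change was 0.14 (SE 0.13; limma, adjusted p = 0.375), and without control library 1 its sign turned, to -0.02 (adjusted p = 0.814). HYOU1, an HSP70-like nucleotide exchange factor of BiP, differed by a smaller amount, at 34.1 ± 1.01 FPKM in knockdown and 28.4 ± 2.62 FPKM in control libraries (SD, n = 3 each), log2 change 0.26 (SE 0.070; limma, adjusted p = 0.0117).

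Smaller factors of the ER lumen were higher too. CRELD2, an ER protein with epidermal growth factor-like repeats, had 32.9, 31.1 and 31.0 FPKM in the knockdown libraries, against 13.3, 15.8 and 14.0 FPKM in the control libraries, which is 2.20-fold higher and had a log2 change of 1.09 (SE 0.070; limma, adjusted p = 6.87e-06). SDF2L1, a partner of the J-domain proteins in the ER, had 61.5, 63.0 and 59.7 FPKM in the knockdown libraries, against 29.9, 33.2 and 40.7 FPKM in the control libraries. MANF, a neurotrophic factor that binds BiP and is secreted under stress, had 82.5, 81.4 and 79.3 FPKM in the knockdown libraries, against 38.5, 51.0 and 54.0 FPKM in the control libraries. None of these 3 genes had a knockdown value within the control range, and the log2 changes of SDF2L1 and MANF were 0.82 (SE 0.10; limma, adjusted p = 0.000168) and 0.76 (SE 0.11; limma, adjusted p = 0.000489). Of the 9 genes around BiP and GRP94, 7 were called higher, 1 lower and 1 was not called, with a median log2 change of 0.76. Over all tested symbols, 25.6% were called higher and 37.9% lower.

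Both lectin chaperones, which hold glycoproteins through their trimmed sugars, were higher. CALR, calreticulin of the ER lumen (chromosome 19, 13049414 to 13055304, hg19), was the most abundant of the 36 genes in both groups, with 566, 559 and 562 FPKM in the knockdown libraries, against 284, 291 and 308 FPKM in the control libraries. CANX, its membrane-bound relative calnexin (chromosome 5, 179125930 to 179158639, hg19), had 453, 462 and 453 FPKM in the knockdown libraries, against 279, 295 and 295 FPKM in the control libraries. The replicates were tight, and the log2 changes were 0.93 (SE 0.041; limma, adjusted p = 1.2e-06) for CALR and 0.65 (SE 0.038; limma, adjusted p = 4.44e-06) for CANX. In control libraries the ranges of CALR and CANX overlapped, whereas in knockdown libraries every CALR value lay above every CANX value.

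Enzymes of disulfide bonds split between isomerases that rose and an isomerase and an oxidase that fell. PDIA4, a disulfide isomerase with several thioredoxin domains, had 147, 147 and 145 FPKM in the knockdown libraries, against 77.0, 79.3 and 80.8 FPKM in the control libraries, a 1.85-fold difference and a log2 change of 0.88 (SE 0.039; limma, adjusted p = 1.26e-06). P4HB, protein disulfide isomerase itself and a subunit of prolyl hydroxylase, had 369, 363 and 362 FPKM in the knockdown libraries, against 274, 277 and 261 FPKM in the control libraries, log2 change 0.43 (SE 0.038; limma, adjusted p = 3.35e-05). PDIA3, the isomerase that works with the lectin chaperones, had 154, 164 and 157 FPKM in the knockdown libraries, against 108, 111 and 111 FPKM in the control libraries, log2 change 0.52 (SE 0.041; limma, adjusted p = 1.78e-05). These 3 enzymes had tight, separate groups. PDIA6 had 159.7, 167 and 168 FPKM in the knockdown libraries, against 119, 112 and 113 FPKM in the control libraries, log2 change 0.51 (SE 0.043; limma, adjusted p = 2.34e-05). TXNDC5 had 66.0, 58.7 and 56.4 FPKM in the knockdown libraries, against 41.1, 39.5 and 42.3 FPKM in the control libraries, log2 change 0.55 (SE 0.065; limma, adjusted p = 0.000153). Both encode further isomerases of the same family and both groups were separate.

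PDIA5, a less abundant family member, was lower, with 11.4, 11.5 and 11.0 FPKM in the knockdown libraries, against 16.7, 15.3 and 18.7 FPKM in the control libraries, log2 change -0.54 (SE 0.077; limma, adjusted p = 0.000437). The oxidases that recharge the isomerases, ERO1L and ERO1LB, differed sharply in level. ERO1LB, the oxidase best known from pancreatic islets, had 0.561, 0.365 and 0.568 FPKM in the knockdown libraries, against 2.36, 2.45 and 3.17 FPKM in the control libraries. It was 5.35-fold lower by mean FPKM, with a log2 change of -1.29 (SE 0.12; limma, adjusted p = 4.88e-05) on a scale that shrinks such low values (with a pseudocount of 0.1 the change was -2.22). ERO1L, its widely expressed paralog and by far the larger of the pair, had 45.1, 44.7 and 43.3 FPKM in the knockdown libraries, against 53.0, 48.3 and 45.3 FPKM in the control libraries. The ERO1L groups were apart by a narrow gap and the log2 change did not pass, at -0.13 (SE 0.062; limma, adjusted p = 0.0904); it passed without control library 3 (adjusted p = 0.0287) and after quantile normalization (0.0238). TXNDC11, a membrane-bound thioredoxin-domain protein, stood at 10.0 ± 0.637 FPKM in knockdown and 8.85 ± 0.199 FPKM in control libraries (SD, n = 3 each; limma, adjusted p = 0.0681), and passed without knockdown library 2 (0.043) and after median scaling (0.0134) or quantile normalization (0.0094). Of the 9 genes in this group, 5 were called higher and 2 lower, with a median log2 change of 0.43, beside 25.6% and 37.9% of all tested symbols.

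The prolyl isomerases PPIB, the ER cyclophilin, and FKBP2, an FK506-binding protein, changed little. PPIB stood at 166 ± 4.65 FPKM in knockdown and 137 ± 1.66 FPKM in control libraries and FKBP2 at 102 ± 4.83 FPKM in knockdown and 90.0 ± 0.753 FPKM in control libraries (SD, n = 3 each). Their log2 changes were 0.28 (SE 0.039; limma, adjusted p = 0.000382) and 0.17 (SE 0.046; limma, adjusted p = 0.0104). The FKBP2 call was lost after quantile normalization (adjusted p = 0.0968).

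**Figure D2:**
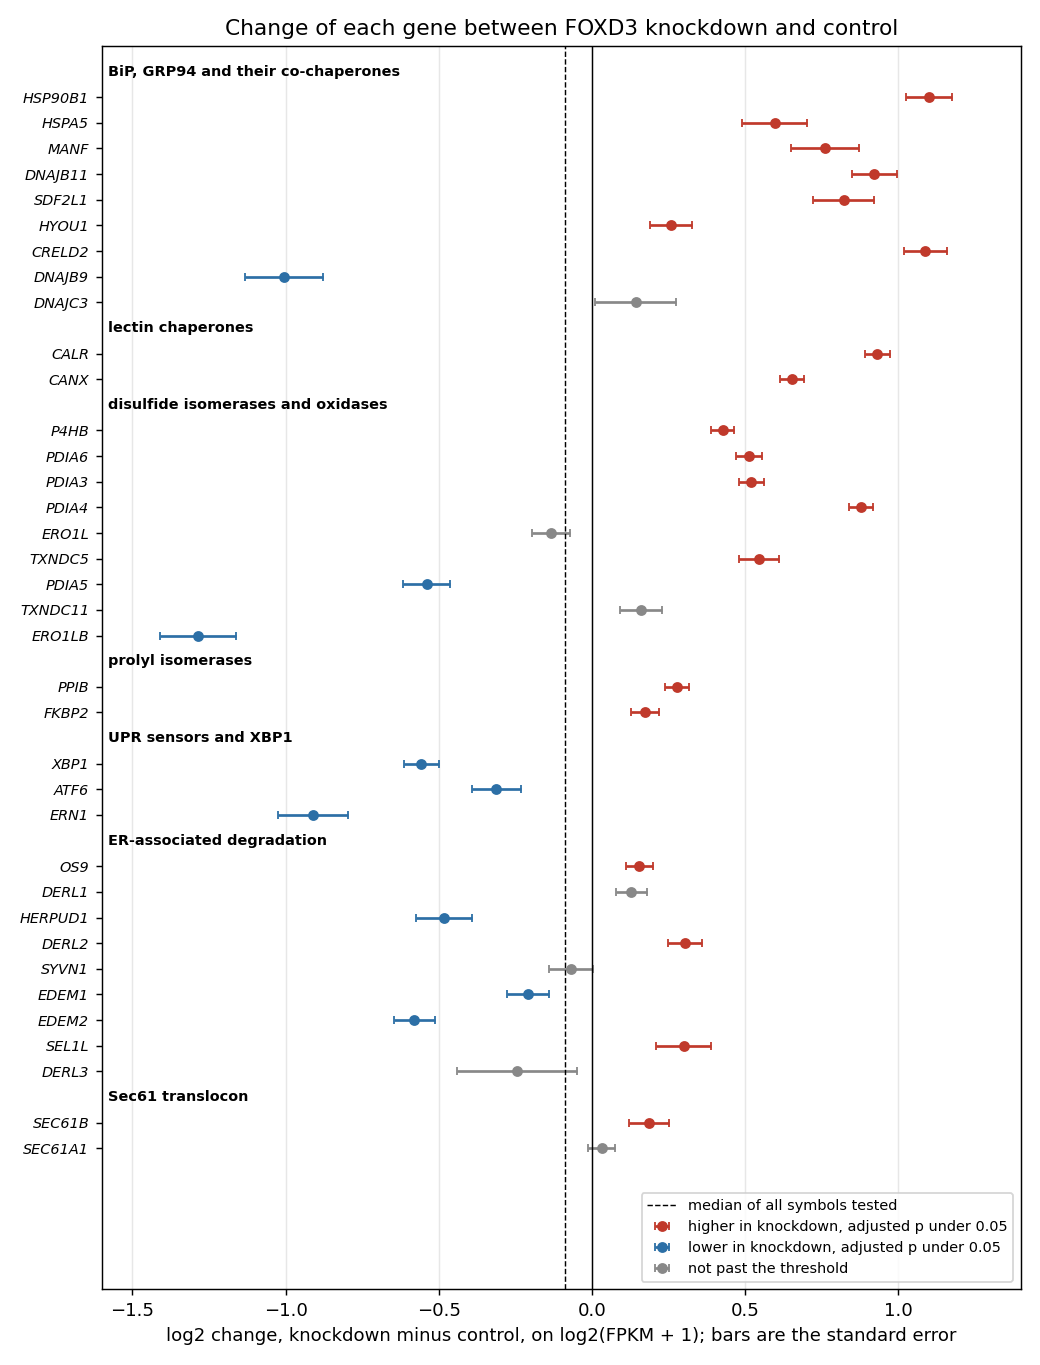
Log2 change of each of the 36 genes (log2 of FPKM + 1, knockdown minus control), with the standard error from limma; red points were called higher, blue points lower and grey points did not pass, and the dashed line marks the median of all symbols tested, -0.09. HSP90B1 and CRELD2 lie furthest right, above 1, and ERO1LB, DNAJB9 and ERN1 furthest left.

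Set beside the chaperones, the sensors went the other way. ERN1, which encodes IRE1, the sensor that splices XBP1 messenger RNA (chromosome 17, 62120390 to 62207502, hg19), had 1.29, 1.04 and 1.63 FPKM in the knockdown libraries, against 3.57, 3.31 and 3.15 FPKM in the control libraries. It was 2.53-fold lower, with separate groups and a log2 change of -0.91 (SE 0.12; limma, adjusted p = 0.000219). XBP1, whose spliced form is the transcription factor made by IRE1 signalling (chromosome 22, 29190548 to 29196560, hg19), had 68.8, 63.2 and 68.2 FPKM in the knockdown libraries, against 94.8, 95.8 and 106 FPKM in the control libraries, a log2 change of -0.56 (SE 0.057; limma, adjusted p = 6.9e-05). These values sum all XBP1 transcripts, so spliced and unspliced forms were not separated. ATF6, a membrane-bound transcription factor released by proteolysis in the Golgi, had 7.48, 7.40 and 6.77 FPKM in the knockdown libraries, against 8.82, 10.1 and 8.71 FPKM in the control libraries. The groups lay apart and the log2 change was -0.31 (SE 0.080; limma, adjusted p = 0.00905), a call lost after quantile normalization (adjusted p = 0.0699). All 3 genes were lower, with a median log2 change of -0.56, beside 37.9% of all tested symbols called lower and their median of -0.09.

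In ER-associated degradation, 3 of 9 genes were called higher, 3 lower and 3 were not called, with a median log2 change of -0.07. That is near all tested symbols, of which 25.6% were called higher and 37.9% lower, with a median of -0.09. After median scaling the split of the 9 genes was 4 higher and 2 lower. EDEM2, a mannose-trimming lectin that marks glycoproteins for disposal, had 10.3, 9.13 and 9.82 FPKM in the knockdown libraries, against 14.8, 14.7 and 15.8 FPKM in the control libraries, a log2 change of -0.58 (SE 0.067; limma, adjusted p = 0.00013). EDEM1, its relative, had 13.4, 12.5 and 13.7 FPKM in the knockdown libraries, against 15.2, 16.5 and 14.4 FPKM in the control libraries. The narrow gap between the EDEM1 groups gave a log2 change of -0.21 (SE 0.069; limma, adjusted p = 0.0283), which did not pass after median scaling (adjusted p = 0.141) or quantile normalization (0.092), or without control library 2 (0.0903), knockdown library 1 (0.0613) or knockdown library 2 (0.0993). HERPUD1, a stress-inducible membrane protein that gathers the ligase complex, had 21.7, 20.3 and 23.4 FPKM in the knockdown libraries, against 27.2, 31.0 and 34.7 FPKM in the control libraries, and fell with a log2 change of -0.48 (SE 0.092; limma, adjusted p = 0.00209).

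The ubiquitin ligase of the pathway and its adaptor differed by small amounts. SYVN1, the ligase HRD1, had 21.9, 21.7 and 24.1 FPKM in the knockdown libraries, against 22.1, 23.3 and 25.8 FPKM in the control libraries. Its ranges overlapped, its log2 change was -0.07 (SE 0.072; limma, adjusted p = 0.432), and after median scaling the sign turned, to 0.02 (adjusted p = 0.848). SEL1L, the adaptor that stabilises HRD1, had 10.7, 11.1 and 11.1 FPKM in the knockdown libraries, against 7.50, 9.54 and 9.21 FPKM in the control libraries, with knockdown values above all controls and a log2 change of 0.30 (SE 0.090; limma, adjusted p = 0.0183). That call was lost without knockdown library 2 (adjusted p = 0.0551) or 3 (0.0564). OS9, a lectin that recognises trimmed glycans, stood at 53.1 ± 1.65 FPKM in knockdown and 47.6 ± 0.747 FPKM in control libraries (SD, n = 3 each), log2 change 0.16 (SE 0.044; limma, adjusted p = 0.0148). OS9 did not pass after quantile normalization (adjusted p = 0.133) or without knockdown library 1 (0.0676).

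Derlins, membrane proteins that help to move substrates out of the ER, were not uniform. DERL2 was higher, at 37.8 ± 1.16 FPKM in knockdown and 30.5 ± 1.71 FPKM in control libraries (SD, n = 3 each), log2 change 0.30 (SE 0.056; limma, adjusted p = 0.00168). DERL1, the more abundant of the pair, stood at 47.6 ± 1.48 FPKM in knockdown and 43.5 ± 1.84 FPKM in control libraries and did not pass, at 0.13 (SE 0.050; limma, adjusted p = 0.0528); it passed without control library 1 (adjusted p = 0.0245) and after median scaling (0.00988). DERL3 was the lowest of the derlins, with 0.710, 0.785 and 1.63 FPKM in the knockdown libraries, against 1.34, 1.84 and 1.01 FPKM in the control libraries. Those values overlapped, the log2 change was -0.24 (SE 0.20; limma, adjusted p = 0.304), and 87.3% of its exonic bases are shared with SMARCB1 on the opposite strand in GENCODE 29, so with no stated strand setting its level is uncertain.

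Sec61, the channel through which new chains enter the ER, differed little between groups. SEC61A1, the pore subunit, stood at 124 ± 4.32 FPKM in knockdown and 121 ± 3.69 FPKM in control libraries (SD, n = 3 each), log2 change 0.03 (SE 0.044; limma, adjusted p = 0.543), and turned to -0.08 after quantile normalization. SEC61B, a small subunit, had 153, 142 and 143 FPKM in the knockdown libraries, against 132, 138 and 116 FPKM in the control libraries, log2 change 0.19 (SE 0.066; limma, adjusted p = 0.0365). The SEC61B call was lost without the filter (adjusted p = 0.0644), after quantile normalization (0.485), without the eBayes trend (0.0755), and without control library 3 (0.0876) or knockdown library 1 (0.125), 2 (0.0623) or 3 (0.0681). Overlapping exons also limit PPIB, with 48.0% of its exonic bases under SNX22 on the opposite strand, PDIA6, with 29.7% under ATP6V1C2, and TXNDC5, with 82.3% in the read-through gene BLOC1S5-TXNDC5. Other listed genes share bases too, among them OS9 (24.4%), P4HB (20.3%), DNAJB11 (18.8% and 15.9% with different genes) and PDIA3 (16.8% and 16.3% with different genes).

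Summed by role, the level of folding transcripts per library was 3394, 3406 and 3364 FPKM in the knockdown libraries and 2035, 2179.9 and 2222 FPKM in the control libraries, a ratio of means of 1.58. The 2 sets of libraries lay far apart. Folding genes held 0.554% to 0.567% of all FPKM in knockdown libraries and 0.329% to 0.363% in control libraries. The sensors and XBP1 summed to 77.5, 71.7 and 76.6 FPKM in knockdown and 107, 109 and 117 FPKM in control libraries, most of it XBP1. Degradation genes summed to 219.7, 212 and 222 FPKM in knockdown and 211, 214 and 226 FPKM in control libraries, which overlap. The Sec61 pair summed to 279, 269 and 262 FPKM in knockdown and 257, 257 and 235 FPKM in control libraries. These sums describe the libraries and carry no test.

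**Figure D3:**
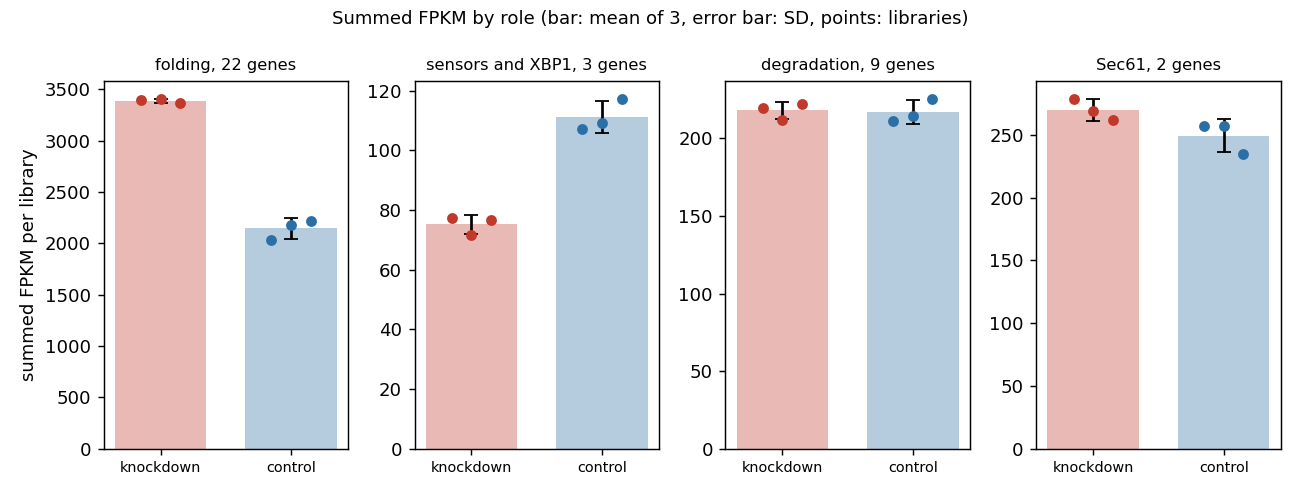
Summed FPKM per library for folding genes, sensors with XBP1, degradation genes and the Sec61 pair; bars are the mean of 3 libraries, error bars the SD and points the libraries, with knockdown left of control and axes from 0. The folding bar is taller in knockdown, the sensor bar is shorter, and the points of the degradation genes overlap.

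Because the genes moved by different amounts, the makeup of the ER set differed between groups. Per library, the ratio of HSP90B1 to HSPA5 FPKM was 1.64 to 1.71 in knockdown and 1.11 to 1.26 in control libraries. DNAJB11 exceeded DNAJB9 by 17.1 to 17.8 times in knockdown and 3.72 to 4.55 times in control libraries. Between the oxidases, ERO1L exceeded ERO1LB by 76.2 to 122 times in knockdown and 14.3 to 22.4 times in control libraries, with ERO1LB at only 0.365 to 0.568 FPKM in knockdown. The ratio did not overlap between groups in any of these 3 pairs, which were picked after their values were seen. By mean FPKM the order in knockdown libraries was CALR, HSP90B1, CANX, P4HB and HSPA5, and in control libraries it was CALR, CANX, P4HB, HSP90B1 and HSPA5. In knockdown libraries no neighbours in that order overlapped, whereas in control libraries CALR overlapped CANX, and HSP90B1 overlapped HSPA5.

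Replicates of the control group differed more in these genes than replicates of the knockdown group. The lowest control value was in control library 1 for 16 of the 22 folding genes (72.7%), against 40.8% of all tested symbols. Among them were HSPA5, HSP90B1, MANF and SDF2L1. The median coefficient of variation of the folding genes was 2.77% in knockdown and 8.46% in control libraries, against 6.08% and 8.13% over all tested symbols. Without control library 1 the folding genes still gave 16 calls higher and 3 lower, beside 3404 higher and 5110 lower over all tested symbols. In the authors' deposited table, 10 of the 36 genes were higher and 3 lower at a false discovery rate under 0.05, beside 10.9% of its 12275 genes higher and 11.2% lower (22.1% in either direction). All 13 had the same sign in limma. The other 16 genes called by limma, 10 higher and 6 lower, did not pass in the authors' deposited table, among them XBP1 (false discovery rate 0.131), ATF6 (0.447), HERPUD1 (0.226), EDEM2 (0.134), P4HB (0.074), PDIA3 (0.121) and PDIA6 (0.0597), so that ERN1 was the one sensor gene that passed. The authors' deposited table gave log2 fold changes of 1.21 for HSP90B1, 1.07 for CALR, -2.34 for ERO1LB and -1.21 for ERN1.

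Many ER chaperone genes carry ER stress elements near their start, where ATF6 and XBP1 are known to bind together with the factor NF-Y. The full element (CCAAT, then any 9 bases, then CCACG) and its short form (ATTGG, then any base, then CCACG) were searched on both strands in RefSeq windows of 250 bases before to 50 after each gene start (GRCh38.p14). The full element was found in 27 of 35116 windows (0.0769%) and the short form in 19 (0.0541%). Counted by gene, 44 of 27305 (0.161%) had either form, the listed genes with a match included. Windows were held for 33 of the 36 genes, and 11 of these 33 had a match, 8 to the full element and 3 to the short form, with no match overlapping another. Of the 11, 8 were called higher and 3 lower, with a median log2 change of 0.60. The other 22 genes with a window had 11 called higher and 6 lower, with a median of 0.16. Over all symbols tested, 25.6% were called higher and 37.9% lower, and the difference between the 2 sets was not tested.

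The 250 bases before the start are shown for the 3 genes with a match that rose most and the 3 that fell, so that risers and fallers can be read side by side. Letters in capitals are the fixed bases of the element, which on the reverse strand reads CGTGG first. Coordinates are GRCh38.p14 and every sequence runs 5′ to 3′ along the gene. HSP90B1 (chr12:103930160-103930409, plus strand) has a match starting 194 bases and another 89 bases before the start, CRELD2 (chr22:49918384-49918633, plus strand) has one at 80 and CALR (chr19:12938359-12938608, plus strand) one at 225.
HSP90B1: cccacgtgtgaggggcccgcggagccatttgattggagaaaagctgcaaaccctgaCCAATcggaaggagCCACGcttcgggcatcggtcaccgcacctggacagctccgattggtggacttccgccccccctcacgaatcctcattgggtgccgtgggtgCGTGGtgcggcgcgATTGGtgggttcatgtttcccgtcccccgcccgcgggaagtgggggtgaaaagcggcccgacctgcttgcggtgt
CRELD2: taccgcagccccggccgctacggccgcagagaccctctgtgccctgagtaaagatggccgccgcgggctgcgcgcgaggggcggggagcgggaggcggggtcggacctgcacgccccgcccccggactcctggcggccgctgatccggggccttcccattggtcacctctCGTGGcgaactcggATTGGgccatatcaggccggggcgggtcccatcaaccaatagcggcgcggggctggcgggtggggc
CALR: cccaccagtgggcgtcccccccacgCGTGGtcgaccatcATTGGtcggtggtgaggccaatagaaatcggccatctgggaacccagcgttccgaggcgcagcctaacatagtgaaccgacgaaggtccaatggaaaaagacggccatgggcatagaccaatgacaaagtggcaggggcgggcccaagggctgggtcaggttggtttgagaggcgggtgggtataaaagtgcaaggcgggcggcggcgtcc
Among the fallers, XBP1 (chr22:28800570-28800819, minus strand) has a match starting 52 bases before the start, ERO1LB (chr1:236281959-236282208, minus strand) one at 243, and HERPUD1 (chr16:56931892-56932141, plus strand) the short form at 117.
XBP1: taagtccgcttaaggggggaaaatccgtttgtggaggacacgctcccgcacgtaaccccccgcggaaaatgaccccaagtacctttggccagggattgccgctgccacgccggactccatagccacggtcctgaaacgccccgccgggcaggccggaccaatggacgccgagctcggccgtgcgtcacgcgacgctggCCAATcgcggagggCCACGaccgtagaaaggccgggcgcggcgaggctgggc
ERO1LB: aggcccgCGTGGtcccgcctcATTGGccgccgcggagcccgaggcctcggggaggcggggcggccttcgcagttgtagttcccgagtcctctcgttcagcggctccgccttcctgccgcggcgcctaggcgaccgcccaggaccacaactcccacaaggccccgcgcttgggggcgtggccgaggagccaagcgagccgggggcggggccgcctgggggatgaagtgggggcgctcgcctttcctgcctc
HERPUD1: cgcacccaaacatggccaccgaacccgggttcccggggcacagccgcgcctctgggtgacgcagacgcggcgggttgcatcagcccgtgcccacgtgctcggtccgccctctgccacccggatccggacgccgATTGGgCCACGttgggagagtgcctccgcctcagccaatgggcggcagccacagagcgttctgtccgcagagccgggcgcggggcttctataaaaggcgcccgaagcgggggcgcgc

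For the other 5 genes, all called higher, only the match and its flanks are given, to show how the spacer between the fixed bases differs. They are HSPA5 (chr9:125241381-125241419, minus strand), CANX (chr5:179698768-179698806, plus strand), PDIA6 (chr2:10812843-10812881, minus strand), SDF2L1 (chr22:21642104-21642134, plus strand) and HYOU1 (chr11:119057370-119057400, minus strand), the last having another copy nearer to the start.
HSPA5: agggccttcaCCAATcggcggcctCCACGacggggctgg
CANX: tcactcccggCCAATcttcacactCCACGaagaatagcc
PDIA6: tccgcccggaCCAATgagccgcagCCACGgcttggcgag
SDF2L1: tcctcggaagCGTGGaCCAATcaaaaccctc
HYOU1: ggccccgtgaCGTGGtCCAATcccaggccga
The same fixed letters stood before HSP90B1, which was 2.14-fold higher, and before XBP1, which was 1.48-fold lower. CANX has 4 windows, of which 3 hold the same match, and in XBP1 and PDIA6 only 1 of 2 windows has one. A match describes the letters and not binding.

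Outside the 36 genes, 33 genes had a match and 20 of them were tested. Of the 20, 6 were called higher and 8 lower, with a median log2 change of -0.09, the same as over all symbols. ALG12, a mannosyltransferase that builds the N-glycan and lies beside CRELD2, was 0.41 log2 units higher (limma, adjusted p = 0.00214). FICD, the enzyme that AMPylates BiP, changed by -0.35 (limma, adjusted p = 0.0168), at only 1.19 FPKM in knockdown and 1.81 FPKM in control libraries. NUCB1, a Golgi calcium-binding protein, changed by -0.41 (limma, adjusted p = 0.000126). SERP1, a translocation factor with a match to the full element, was not called, at -0.10 (limma, adjusted p = 0.21).

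**Figure D4:**
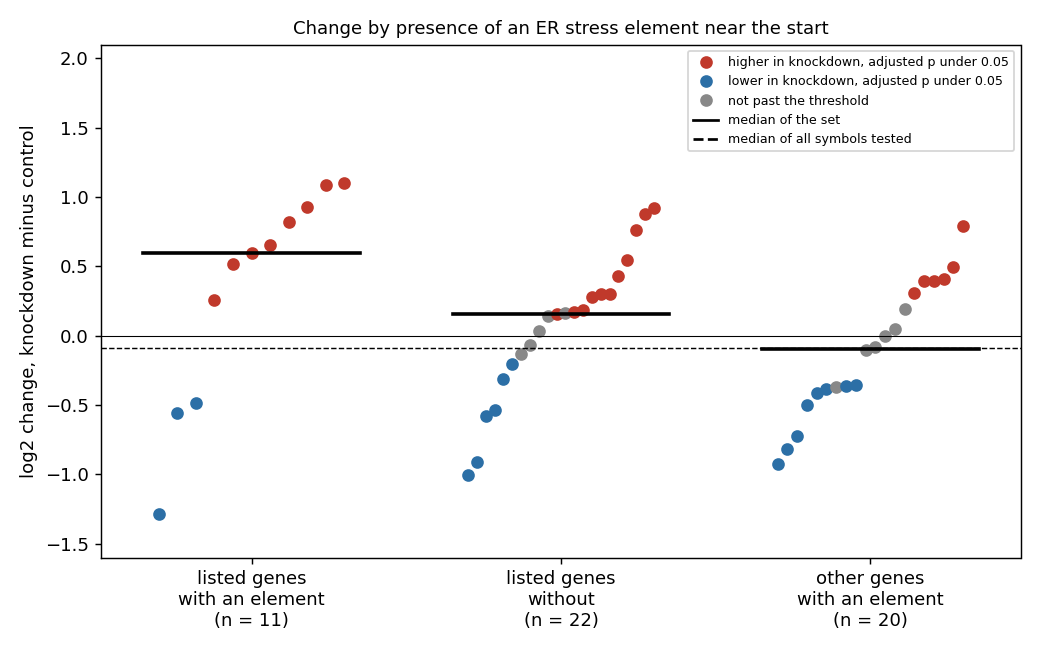
Log2 change, knockdown minus control, for genes grouped by an exact match to an ER stress element in a start window. From the left are 11 listed genes with a match, 22 with a window and no match, and 20 other tested genes with a match. Variants of the element were not searched. Solid lines are the medians of each set (0.60, 0.16 and -0.09) and the dashed line that of all symbols tested. Points of the first set lie above 0 for 8 genes and below for 3.

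Genes of the same pathways outside the 36 were read from 5 lists, 115 symbols of which 112 were tested; 41 were called higher and 33 lower, with a median log2 change of -0.02, beside 25.6% higher and 37.9% lower over all symbols. Among the other sensors, the PERK branch and the proteases that release ATF6, 1 of 17 was higher, 8 were lower and 8 were not called (median -0.27). PPP1R15A, the phosphatase subunit that ends the PERK signal, had 18.5, 20.0 and 18.8 FPKM in the knockdown libraries, against 42.9, 56.2 and 53.6 FPKM in the control libraries, log2 change -1.36 (SE 0.10; limma, adjusted p = 1.06e-05). TRIB3, a pseudokinase induced downstream of PERK, had 54.6, 54.6 and 56.0 FPKM in the knockdown libraries, against 116, 114 and 102 FPKM in the control libraries, log2 change -0.99 (SE 0.056; limma, adjusted p = 3.93e-06). EIF2S1, the initiation factor subunit that PERK phosphorylates, was the gene called higher, with 55.6, 54.0 and 61.8 FPKM in the knockdown libraries, against 32.6, 32.7 and 30.2 FPKM in the control libraries, log2 change 0.82 (SE 0.064; limma, adjusted p = 1.66e-05). EIF2AK3, which encodes PERK, ATF6B, a relative of ATF6, and MBTPS2, the site-2 protease, fell by smaller amounts, with log2 changes of -0.30, -0.37 and -0.53 (limma, adjusted p = 0.0356, 0.000239 and 0.000709). ATF4 and DDIT3 (CHOP), transcription factors of the PERK branch, changed by -0.48 and -0.55 (adjusted p = 2.19e-05 and 0.00909). MBTPS1, the other protease on that list, and PPP1R15B were not called, at -0.16 and -0.02 (limma, adjusted p = 0.0683 and 0.783).

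Of the other folding factors, 9 of 29 were higher and 10 lower (median -0.09), close to the 25.6% and 37.9% of all symbols and to their median. TMX1, a membrane-bound thioredoxin-related isomerase, had 38.4, 37.1 and 34.2 FPKM in the knockdown libraries, against 17.9, 18.1 and 19.7 FPKM in the control libraries, log2 change 0.94 (SE 0.064; limma, adjusted p = 8.79e-06). PRDX4, the ER peroxiredoxin, had 115, 120.2 and 115 FPKM in the knockdown libraries, against 72.5, 63.7 and 59.5 FPKM in the control libraries, log2 change 0.83 (SE 0.070; limma, adjusted p = 2.51e-05). PPIC, a further cyclophilin of the secretory route, was 2.20-fold lower, at 14.1 ± 2.04 FPKM in knockdown and 31.0 ± 4.74 FPKM in control libraries (SD, n = 3 each), log2 change -1.08 (SE 0.12; limma, adjusted p = 0.000128).

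Genes of N-glycan transfer and trimming had 9 of 17 higher and 2 lower (median 0.26), or 4 lower without control library 1. MAGT1 and RPN2, subunits of the oligosaccharyltransferase that attaches glycans, were 1.79- and 1.50-fold higher, and PRKCSH, the beta subunit of glucosidase II, was 1.47-fold lower. Their log2 changes were 0.81 (SE 0.044; limma, adjusted p = 3.32e-06), 0.58 (SE 0.048; limma, adjusted p = 2.35e-05) and -0.56 (SE 0.042; limma, adjusted p = 1.39e-05). GANAB, the catalytic subunit of that glucosidase, changed by 0.26 (limma, adjusted p = 0.00244), opposite in sign to its partner, a gene picked after its value was seen. Further degradation factors had 8 of 25 higher and 10 lower (median -0.04), or 9 and 6 after median scaling, also close to the 25.6% and 37.9% of all symbols. UFD1L, a cofactor of the extracting ATPase VCP, was 1.54-fold higher, while UBXN6, another VCP cofactor, was 2.04-fold and HERPUD2, a HERPUD1 paralog, 1.62-fold lower (limma, adjusted p = 6.78e-05, 7.14e-06 and 0.000138). Translocation and signal peptide factors had 14 of 24 higher and 3 lower (median 0.21), or 6 lower without control library 1. SRPRB, a subunit of the receptor for the signal recognition particle, was 2.02-fold, SPCS3, a signal peptidase subunit, 1.38-fold and SRP9, part of the particle itself, 1.37-fold higher (limma, adjusted p = 2.33e-05, 0.00012 and 7.91e-05).

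**Figure D5:**
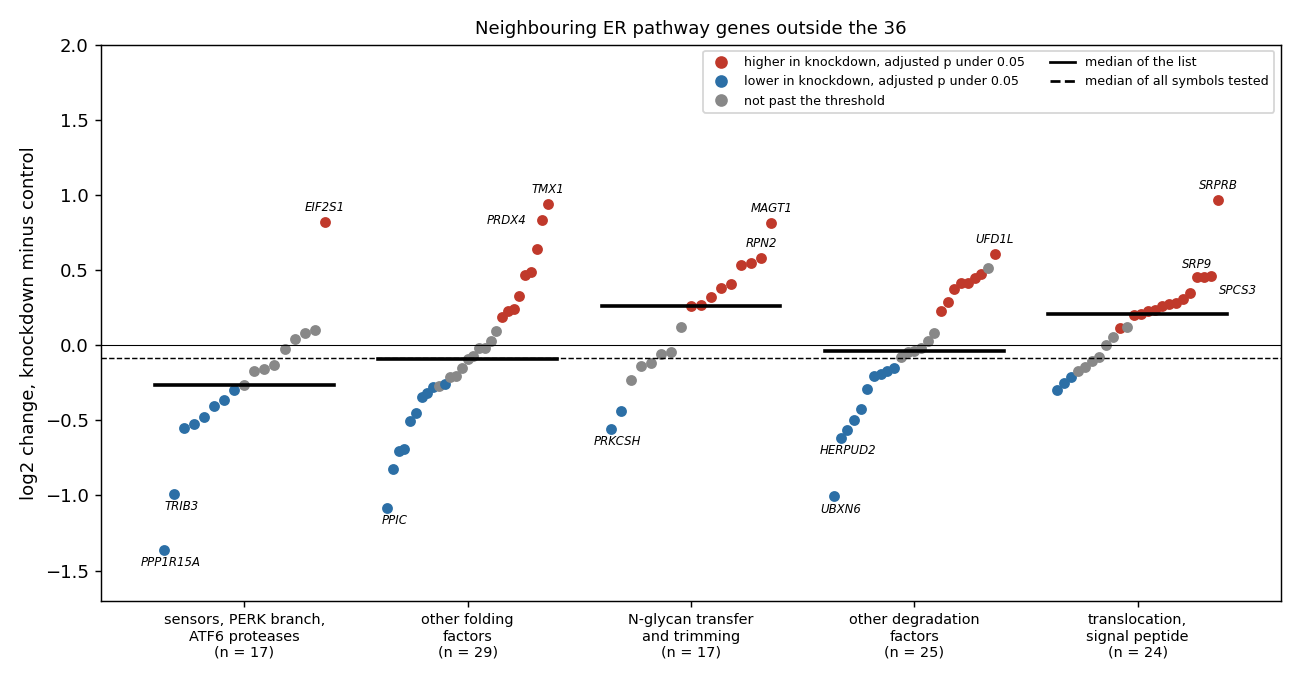
Log2 change, knockdown minus control, of 112 tested genes in 5 neighbouring ER lists; red points were called higher, blue points lower, grey points did not pass, solid lines are list medians and the dashed line the median of all symbols tested. The list of sensors and the PERK branch has 1 red point, EIF2S1, and 8 blue points, and the N-glycan and translocation lists have medians above 0.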

How the data were processed

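RNA-seq was analysed in 3 FOXD3 knockdown and 3 control libraries of A549 cells, grouped by the labels' genotype. The deposited values are FPKM per gene, made by the authors with tools that the submitters' processing notes list as TopHat2 2.0.12, Bowtie, Cufflinks 2.0.2 and Cuffdiff on hg19; no source used here gives the strand setting. A deposited comparison table of the authors also holds log2 fold changes, p-values and false discovery rates, which were used only where named.

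From these values, each symbol's FPKM was summed over its loci and set to 0 where a library did not list it. Symbols with a mean of at least 0.5 FPKM were tested on log2(FPKM + 1) with limma 3.58.1 in R 4.3.3 (lmFit and eBayes with trend, two-sided, Benjamini-Hochberg over 13340 symbols, threshold 0.05). The fit was first run on simulated data in which few genes were changed and the noise was independent. In these libraries most tested symbols were called, so that run does not gauge the calls given here. Depth was not measured, so no counting intervals are given. Promoter windows and overlapping genes came from RefSeq (GRCh38.p14) and GENCODE 29; file coordinates are hg19 and were not converted.

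The 36 genes and all lists were chosen with earlier results of these data known. Values per library are given for called genes with a log2 change of at least 0.5, for the sensors and for 7 genes of the list's core, and other genes were added after their values were seen. From each neighbouring list up to 3 called genes with the largest change and at least 5 FPKM in the higher group were named. EIF2AK3, ATF6B, MBTPS1, MBTPS2, PPP1R15B, ATF4, DDIT3, GANAB, ALG12, FICD, NUCB1 and SERP1 were named after their values were seen. Alternatives were other pseudocounts, filters, scalings and eBayes settings, symbols at 1 locus, and leaving out each library.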

Additional observations from a re-analysis of the deposited data

How the results depend on the processing

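Of the 29 called genes, 21 kept their direction and call in all 15 alternative settings (16 higher, 5 lower), and ERO1LB and ERN1, both lower, in the 14 that give them a value, since a filter of 5 FPKM leaves them and DERL3 out. Leaving out 1 library at a time gave 18 to 21 of the 36 genes called higher and 8 to 10 called lower, 16 to 17 folding genes higher and 3 to 4 lower, 2 to 4 degradation genes higher and 2 to 3 lower, and 7488 to 8514 symbols called in all. With a filter of 5 FPKM, which tests fewer symbols, 2967 were called higher and 3295 lower, beside 3417 and 5050 with the main filter. The lower calls dropped more, so the balance over all symbols depends on weakly expressed ones. The shares of 25.6% and 37.9% include such symbols, and the shares at 5 FPKM are not given here. Median scaling moved the summed ratios of knockdown over control to 1.68 for folding, 1.07 for degradation and 1.15 for Sec61 genes. Signs turned for genes that were not called: DNAJC3 at -0.0209 without control replicate 1, SYVN1 at 0.0169 after median scaling, and DERL3 at 0.0648 and SEC61A1 at -0.079 after quantile normalization; the cause was not tested. After quantile normalization the changes of PPIB, FKBP2 and SEC61B were 0.15, 0.10 and 0.05, and after median scaling those of FKBP2 and OS9 were 0.26 and 0.24. Counts within smaller groups that moved by over 1.5 times were 1 disulfide gene lower with a filter of 5 FPKM, 1 prolyl isomerase higher after quantile normalization, 0 Sec61 genes higher in 7 settings, 2 of the other sensors higher and 6 further degradation factors lower after median scaling, and 4 N-glycan and 6 translocation genes lower without control replicate 1. Depth limits the genes near or under 1 FPKM, such as DERL3, ERN1 and ERO1LB, the last at 0.365 to 0.568 FPKM in knockdown libraries. The size of the ERO1LB fall and of its ratio to ERO1L is therefore uncertain. No paired analysis was possible because the labels give no replicate numbers.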
